A study of Mus musculus with 45 samples.

Results

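The interferon regulatory factors examined here were *Irf1*, *Irf2*, *Irf3*, *Irf4*, *Irf5*, *Irf7*, *Irf8* and *Irf9*, a family of transcription factors that was taken by gene symbol from a named list of 8. All 8 were found among the 29307 genes of the count table, and all 8 passed the low-count filter that left 12905 genes for testing. They were measured by RNA sequencing in bone marrow-derived macrophages of C57BL/6N mice that had been engineered to express human FAMIN variants, either the non-risk p.254I, the Crohn's disease risk variant p.254V or the monogenic disease variant p.284R. All 3 genotypes carry a human variant, so none of the groups is wild type, and p.254I served as the reference. Mice were 6 to 10 weeks old, and cells had grown for 6 days with M-CSF before they were left unstimulated (M0) or received, over 24 h, either LPS at 20 ng/mL together with IFN-γ at 50 ng/mL (M1) or IL-4 alone at 20 ng/mL (M2). Each of the 9 groups had 5 libraries, and libraries that share a genotype and a replicate number were taken as the 3 cultures of 1 mouse, which gave 45 libraries from 15 mice. Levels are given as CPM, the counts scaled to a common library total with TMM factors, and differences as log2 fold changes ± SE from a single edgeR quasi-likelihood fit of the 9 groups, with Benjamini-Hochberg adjusted p values over all genes tested.

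Interferon regulatory factors share an amino-terminal DNA-binding domain that recognizes GAAA repeats, the core of the interferon-stimulated response element (ISRE). IRF3 and IRF7 sit as latent cytoplasmic proteins until kinases downstream of nucleic acid sensors and Toll-like receptors phosphorylate them, and they then switch on type I interferon genes. IRF9 is the DNA-binding subunit of ISGF3, the complex that relays the type I interferon signal to ISRE-bearing genes, *Irf7* among them. IRF1 is a transcriptional activator made in response to IFN-γ, which acts on genes that carry the gamma-activated site (GAS), and IRF2 competes with it for the same DNA. IRF8 and IRF4 bind weakly alone and work with partners such as PU.1 and BATF proteins, IRF8 in monocytes and macrophages under IFN-γ and IRF4 in the IL-4 response. IRF5 acts downstream of MyD88 and is known for inflammatory cytokine genes in macrophages. These are background facts on the proteins, whereas the measurements that follow are of their mRNAs.

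Because the stimuli used here act through known DNA motifs, promoters are printed for the 3 members with a GAS match (*Irf1*, *Irf8* and *Irf2*) and for *Irf7* and *Irf4*, which had large polarization differences and no match. Each window runs from 250 bases before to 50 bases after the start of a RefSeq transcript on GRCm38.p6, the assembly of mm10, and is written on the strand of the gene, 5′ to 3′. Capitals mark matches on either strand to GAS (TTCNNNGAA), the ISRE core (GAAANNGAAA), an ETS-IRF composite (GGAA and GAAA with 2 bases between them) or the κB motif. A STAT6-type spacing (TTCNNNNGAA) was also searched and occurs in none of these 5 windows.
Irf1 (chr11:53769764-53770063, plus strand): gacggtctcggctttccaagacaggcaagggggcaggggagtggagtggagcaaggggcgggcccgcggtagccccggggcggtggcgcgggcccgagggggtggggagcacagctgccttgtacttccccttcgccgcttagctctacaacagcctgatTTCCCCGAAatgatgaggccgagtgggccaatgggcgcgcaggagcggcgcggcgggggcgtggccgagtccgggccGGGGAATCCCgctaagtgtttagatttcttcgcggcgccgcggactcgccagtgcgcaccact
Irf8 (chr8:120736108-120736407, plus strand): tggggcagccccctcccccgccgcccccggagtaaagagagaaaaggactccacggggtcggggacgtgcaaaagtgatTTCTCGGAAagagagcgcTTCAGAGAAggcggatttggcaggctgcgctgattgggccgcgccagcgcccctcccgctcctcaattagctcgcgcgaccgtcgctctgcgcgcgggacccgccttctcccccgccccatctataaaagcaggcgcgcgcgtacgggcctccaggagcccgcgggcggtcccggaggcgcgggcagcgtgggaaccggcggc
Irf2 (chr8:46739495-46739794, plus strand): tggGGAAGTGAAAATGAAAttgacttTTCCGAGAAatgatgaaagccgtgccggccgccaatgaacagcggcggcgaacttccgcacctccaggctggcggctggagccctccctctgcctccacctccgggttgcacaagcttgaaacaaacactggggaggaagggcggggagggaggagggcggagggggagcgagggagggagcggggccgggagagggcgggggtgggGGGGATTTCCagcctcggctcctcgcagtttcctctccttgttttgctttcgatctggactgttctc
Irf7 (chr7:141266375-141266674, minus strand): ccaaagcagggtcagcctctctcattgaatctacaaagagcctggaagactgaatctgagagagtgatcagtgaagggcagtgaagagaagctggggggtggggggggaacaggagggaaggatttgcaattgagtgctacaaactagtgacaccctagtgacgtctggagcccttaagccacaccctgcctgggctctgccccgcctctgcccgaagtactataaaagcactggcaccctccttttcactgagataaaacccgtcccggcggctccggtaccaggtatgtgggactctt
Irf4 (chr13:30748983-30749282, plus strand): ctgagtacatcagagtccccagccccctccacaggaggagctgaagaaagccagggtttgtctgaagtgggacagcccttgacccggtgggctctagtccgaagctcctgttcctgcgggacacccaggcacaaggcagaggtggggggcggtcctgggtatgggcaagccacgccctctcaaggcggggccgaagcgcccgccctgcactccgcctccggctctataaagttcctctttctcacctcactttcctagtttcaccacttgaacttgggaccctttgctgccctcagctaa

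In the first window of *Irf1*, a GAS match, TTCCCCGAA, begins 90 bases before the start and a κB match, GGGGAATCCC, 13 bases before it. The first window of *Irf8* carries 2 GAS matches, TTCTCGGAA and TTCAGAGAA, that begin 171 and 153 bases before the start. The second windows of *Irf1* and *Irf8*, not printed, hold none of the motifs searched. *Irf2* carries TTCCGAGAA 224 bases before the start, next to the GAAA repeat GAAAATGAAA, which overlaps an ETS-IRF match (GGAAGTGAAA), and a κB match 17 bases before the start. The windows of *Irf7* and *Irf4* hold none of the motifs searched, nor do those of *Irf3* and *Irf5*, while a window of *Irf9* holds only the STAT6-type spacing. GAS thus occurred in 3 of 8 members, the ISRE core in 1, the ETS-IRF composite in 1, the κB motif in 2 and the STAT6-type spacing in 1. Of the 32851 promoter windows of all genes, 8.30% hold GAS, 3.44% the ISRE core, 2.72% the ETS-IRF composite, 8.46% the κB motif and 6.95% the STAT6-type spacing. These shares are per window, whereas the 8 members were counted per gene over 11 windows in all. A match describes letters in a window and does not show that a factor binds there.

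On mm10 the genes lie at chr11:53770014-53778374 (*Irf1*), chr8:46739732-46847458 (*Irf2*), chr7:44997648-45002848 (*Irf3*), chr13:30749226-30766976 (*Irf4*), chr6:29526625-29541871 (*Irf5*), chr7:141262706-141266481 (*Irf7*, the only one on the minus strand), chr8:120736358-120756694 (*Irf8*) and chr14:55603571-55610030 (*Irf9*). Exons of *Irf5* share 411 bases, 14.1% of their length, with *Tnpo3* on the opposite strand, and those of *Irf9* share 123 bases with *Rnf31* on the same strand, so reads there could belong to either gene. *Irf1*, *Irf3* and *Irf7* share 45 to 135 bases with a gene on the opposite strand.

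Library totals ran from 17239009 to 43740283 counts with a median of 27553642, so members were well covered except *Irf4* in M1, with 7 to 90 counts per library. Macrophage markers (*Adgre1*, *Csf1r*, *Cd68*, *Itgam*, *Mertk*, *Fcgr1*, *Lyz2*) summed to between 9583 and 33188 CPM in every library, and 5 of 7 were lower in M1 and 6 of 7 in M2 than in M0, whereas the 5 B cell and 5 T and NK cell markers summed to at most 11.8 and 1.24 CPM. Neutrophil markers summed to 12.1 to 128 CPM in M0, 16.8 to 54.8 in M1 and 7.07 to 28.6 in M2. For fibroblast markers the sums were 17 to 89, 6.7 to 20.7 and 9.28 to 32.6 CPM. Polarization markers followed the labels, with M1 markers at 1647 to 7147 CPM in M1 and at most 64.8 CPM elsewhere, and M2 markers at 4453 to 14209 CPM in M2 and at most 914 CPM elsewhere. Certain libraries stood apart in interferon-related genes. The p.254I replicate 4 library had 1540 CPM of *Irf7* in M0, where the other 14 had 88.6 to 294 CPM, and 289 CPM in M2, where the others had 20.3 to 90.7 CPM. In the same libraries *Ccl5*, a chemokine gene, stood at 563 CPM in M0 (5.36 to 13.5 in the others) and 288 CPM in M2 (3.45 to 17.4). In M1 the same mouse was not extreme for *Irf7*, at 2058 CPM among 1196 to 2751, but its M1 markers summed to only 2043 CPM. The *Irf7* differences between polarizations and genotypes are given in the text with and without this mouse. Other values include it unless stated. Separately, the 3 M1 libraries numbered 2, 1 of each genotype, had the lowest *Irf7* of their polarization (1196 to 1668 CPM against 1861 to 2751 CPM). M1 markers summed to 1647 to 2674 CPM in these 3 and to 2043 to 7147 CPM in the other M1 libraries. Libraries numbered 2 also lay clear of the others, as the lowest, in *Irf2* in M0 (94.7 to 103 against 108 to 147 CPM) and M1 (172 to 177 against 181 to 217), *Irf3* in M0 and M2, and *Irf9* in M1 (102 to 104 against 105 to 125). They lay clear as the highest in *Irf5* in M2 (468 to 500 against 377 to 461 CPM) and *Irf8* in M0 (260 to 278 against 193 to 255). In M0 the libraries numbered 2 held 90.3 to 128 CPM of neutrophil markers, against 12.1 to 90.3 CPM in the others. The part of neutrophil transcripts in these differences was not tested. In bulk RNA, more cells with a transcript and more transcript per cell cannot be told apart.

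Levels were compared between genes only per kilobase of merged annotated exons (CPM per kb). In M0, *Irf5* led with 108 ± 10.3 CPM per kb (SD, n = 15), followed by *Irf7* (66.3 ± 95.4, or 41.9 ± 14.0 without p.254I replicate 4), *Irf8* (32.8 ± 3.67) and *Irf1* (25.8 ± 4.54). *Irf2*, *Irf9* and *Irf3* lay between 11.7 and 15.6 CPM per kb on average, and *Irf2* exceeded *Irf9* in only 10 of 15 libraries. *Irf4* was lowest, at 1.65 ± 0.311 CPM per kb, and was the only member whose range stood clear of its neighbor. In M1, *Irf7* (576 ± 124) and *Irf1* (347 ± 15.4) took the lead, with *Irf7* the higher in 14 of 15 libraries, and every pair of neighbors further down, from *Irf1* over *Irf5*, *Irf8*, *Irf2*, *Irf9* and *Irf3* to *Irf4*, was separated in all 15. In M2, *Irf5* again led with 145 ± 13.6 CPM per kb and *Irf4* came next with 44.8 ± 9.96, with no overlap between them. The remaining neighbors overlapped in M2, and *Irf7*, *Irf3* and *Irf9*, at mean levels of 14.9, 10.9 and 10.5 CPM per kb, could not be put in a firm order. The order depends in part on the gene length used. With the longest protein-coding transcript in place of merged exons, *Irf8* (287 ± 23.4 CPM per kb) passed *Irf5* (235 ± 17.8) in M1, and *Irf2* (61.5 ± 4.84) and *Irf1* (50.4 ± 5.92) passed *Irf4* (46.1 ± 10.2) in M2, whereas the order in M0 was the same.

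**Figure D1:**
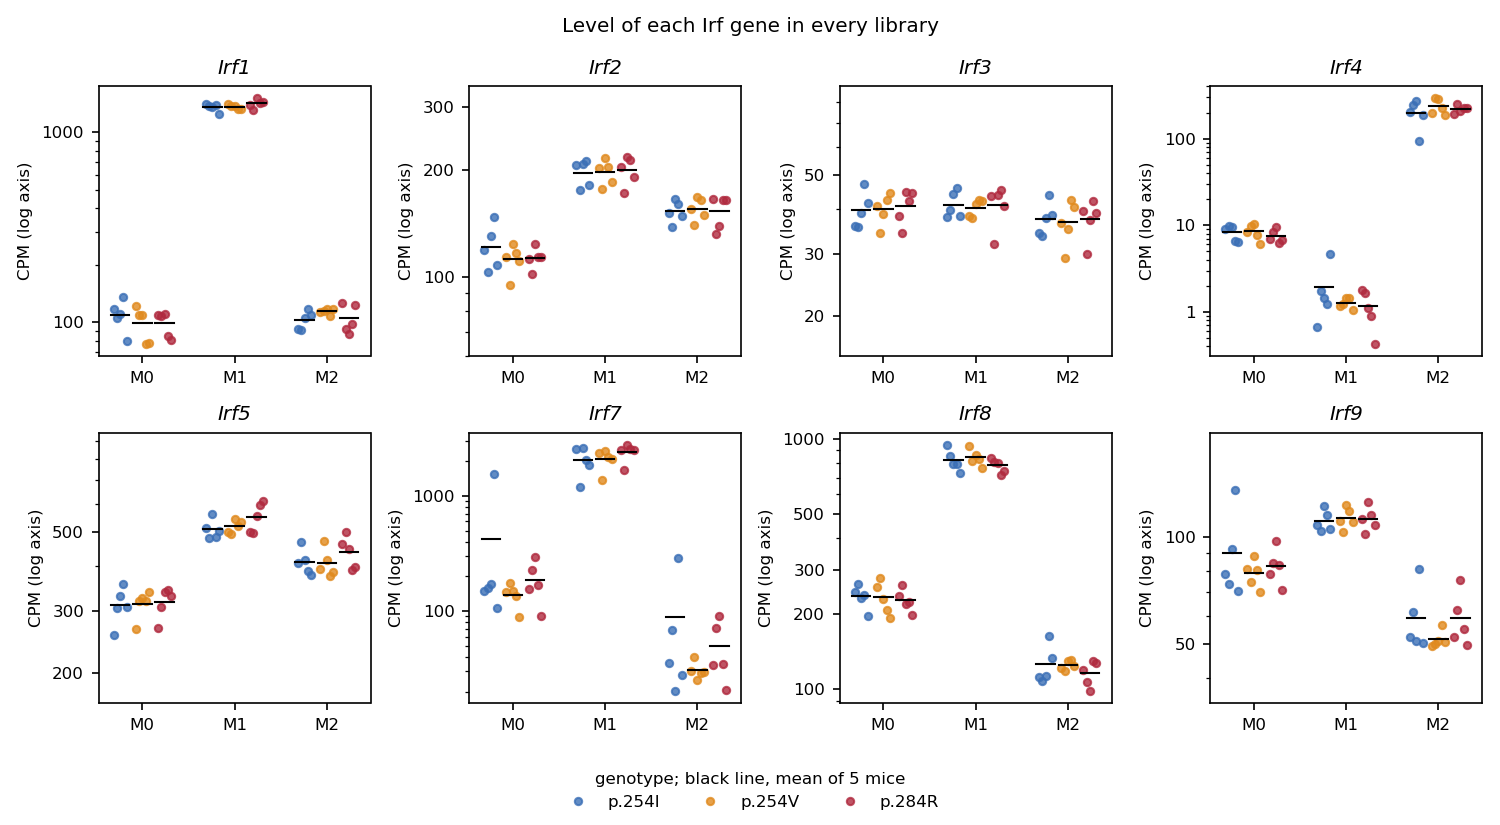
Level of each gene in CPM (log axis, a separate scale per gene) in M0, M1 and M2. Each point is 1 library and is colored by genotype, black lines are means of 5 mice, and the isolated high points of *Irf7* in M0 (1540 CPM) and M2 (289 CPM) are p.254I replicate 4.

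As shares of the summed length-scaled level of the 8 genes, *Irf5* made up 41.3% ± 7.54 (SD, n = 15) of the total in M0 and 49.8% ± 3.26 in M2, but 14.3% ± 1.27 in M1. *Irf7* and *Irf1* together filled most of the M1 total, with 44.5% ± 5.30 and 27.4% ± 2.89. *Irf4*, at 0.637% ± 0.155 in M0 and 0.0244% ± 0.0178 in M1, reached 15.4% ± 3.26 in M2. Shares also moved with the gene length. With the longest coding transcript, *Irf4* made up 0.38%, 0.0141% and 10.3% of the total in M0, M1 and M2, and *Irf2* in M2 made up 13.7% in place of 7.18%. The summed level of the family was 278 ± 108 CPM per kb in M0, where p.254I replicate 4 was the highest at 659, 1280 ± 146 in M1 and 291 ± 21.0 in M2.

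**Figure D2:**
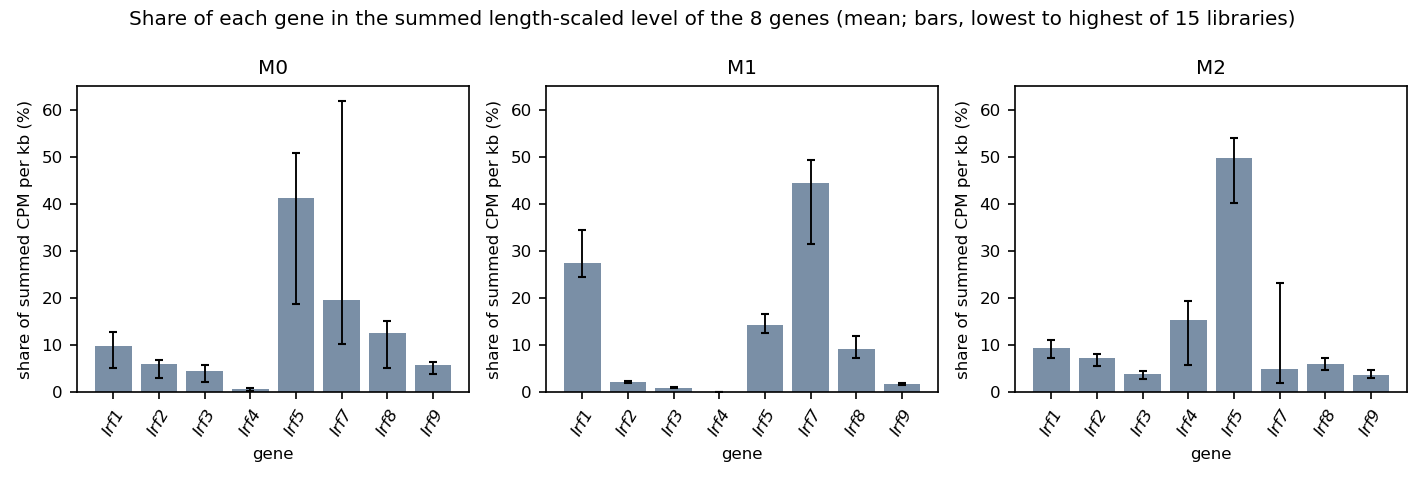
Share of each gene (%) in the summed CPM per kb of the 8 genes, in M0, M1 and M2. Bars are means of 15 libraries and whiskers run from the lowest to the highest library. *Irf5* is the tallest bar in M0 and M2, *Irf7* and *Irf1* are the tallest in M1, and the long *Irf7* whisker in M0 reaches p.254I replicate 4 at 61.9%.

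M1 was compared with M0 to ask how the family responded to IFN-γ and LPS. Of the 8 members, 6 rose, *Irf4* fell and *Irf3* did not pass the test, and among all genes tested 37.0% were called higher and 40.3% lower. The median log2 difference of the 8 was 0.76, beside -0.03 for all genes tested. *Irf1*, the IFN-γ-induced activator, had the lowest, median and highest levels of 77.0, 109 and 136 CPM in M0 and 1251, 1382 and 1511 CPM in M1. The M1 libraries lay far above all M0 libraries and close to each other, and the difference was 3.75 ± 0.07 on the log2 scale, 13.5-fold (adjusted p = 7.2e-35). *Irf7*, the amplifier of type I interferon, had 88.6, 154 and 1540 CPM in M0 and 1196, 2357 and 2751 CPM in M1. The groups overlapped only through p.254I replicate 4 in M0, and *Irf7* rose by 3.29 ± 0.35 (9.75-fold, adjusted p = 4.9e-11), or by 3.81 ± 0.21 without that mouse. *Irf8*, a lineage factor of macrophages and dendritic cells, had 193, 231 and 278 CPM in M0 and 715, 810 and 943 CPM in M1. These ranges did not touch, and the rise was 1.82 ± 0.06 (3.52-fold, adjusted p = 1.0e-27). Among dendritic cell markers measured beside it, *Clec9a* (198 to 422 CPM in M1 against at most 0.795 in M0) and *Xcr1* (4.62 to 10.6 CPM against at most 0.0679) rose, *Zbtb46* fell by 0.98 ± 0.24 and *Siglech* did not pass, while *Flt3* and *Cd209a* stayed at or under 0.317 CPM. The 6 markers summed to 0.745 to 2.31 CPM in M0 and 209 to 432 CPM in M1, and their part in the *Irf8* result was not tested.

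Changes in the other members were smaller. *Irf2*, the competitor of *Irf1*, had 94.7, 114 and 147 CPM in M0 and 172, 204 and 217 CPM in M1, and rose by 0.78 ± 0.05 (1.71-fold, adjusted p = 1.2e-17). *Irf5* had 256, 319 and 358 CPM in M0 and 482, 512 and 612 CPM in M1, a rise of 0.74 ± 0.05 (1.67-fold, adjusted p = 1.5e-17). Neither gene overlapped between M0 and M1. *Irf9*, the DNA-binding subunit of ISGF3, had 70, 80.6 and 135 CPM in M0 and 102, 111 and 125 CPM in M1, and rose by 0.42 ± 0.07 (1.34-fold, adjusted p = 2.5e-06). Its overlap again came from p.254I replicate 4, the M0 library with 135 CPM, and the rise was 0.49 ± 0.05 without that mouse. *Irf3* had 34.3, 40.8 and 47.2 CPM in M0 and 32.0, 41.3 and 45.9 CPM in M1, with a difference of 0.02 ± 0.06 (95% interval, -0.10 to 0.14, adjusted p = 0.75). *Irf4* was low in M0, with 6.10, 8.41 and 10.4 CPM, and lower in M1, with 0.426, 1.24 and 4.62 CPM. It fell by 2.52 on the log2 scale (SE 0.18, adjusted p = 4.6e-16) and was 5.73-fold lower. In all, *Irf1*, *Irf2*, *Irf5*, *Irf8* and *Irf4*, 5 of 8, had no overlap between the 15 M1 and the 15 M0 libraries, which held for 28.6% of all genes tested.

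The highest *Irf4* value in M1 came from p.254I replicate 5, at 4.62 CPM where the other 14 libraries had at most 1.78 CPM. That library also held 40.8 CPM of *Arg1* and 49.1 CPM of *Retnla*, IL-4-induced genes that did not exceed 0.912 and 0.249 CPM in the other M1 libraries. Without this mouse *Irf4* fell by 2.71 (SE 0.16). The part of these transcripts in the *Irf4* level of the library was not tested.

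M2 was compared with M0 for the response to IL-4. *Irf4*, *Irf2* and *Irf5* rose, *Irf7*, *Irf8* and *Irf9* fell, and *Irf1* and *Irf3* did not pass the test, against 36.8% of all genes called higher and 39.6% lower. *Irf4*, the IL-4-responsive member, had the lowest, median and highest levels of 93.4, 225 and 292 CPM in M2 against 6.10, 8.41 and 10.4 CPM in M0. Every mouse rose, by at least 3.65 on the scale of log2(CPM + 1), and the fitted difference was 4.76 ± 0.15 (27.1-fold, adjusted p = 9.3e-27), rank 71 from the top of the 12905 genes. The lowest M2 value, 93.4 CPM, came from p.254I replicate 4, and the other 14 libraries had 185 to 292 CPM. *Irf7* had 20.3, 33.8 and 289 CPM in M2 and 88.6, 154 and 1540 CPM in M0. The ranges overlapped, yet *Irf7* was lower in M2 than in M0 in 15 of 15 mice, and fell by 2.11 (SE 0.34, 4.33-fold lower, adjusted p = 5.0e-07). Without p.254I replicate 4 it fell by 2.0 (SE 0.19).

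*Irf8* had 98.6, 122 and 163 CPM in M2, all below the 193 to 278 CPM of M0, and was 1.89-fold lower (log2 difference, -0.92 ± 0.06, adjusted p = 1.1e-17). *Irf9* had 49.4, 52.2 and 81.1 CPM in M2, fell in 15 of 15 mice and was 1.48-fold lower (-0.57 ± 0.07, adjusted p = 7.1e-09). *Irf2* had 132, 155 and 168 CPM in M2 and rose by 0.41 ± 0.05 (1.33-fold, adjusted p = 1.2e-09), and *Irf5* had 377, 409 and 500 CPM and rose by 0.42 ± 0.05 (1.34-fold, adjusted p = 3.1e-10). Both were higher in M2 than in M0 in 15 of 15 mice. *Irf1*, at 86.6, 109 and 127 CPM in M2, differed from M0 by 0.07 ± 0.07 (95% interval, -0.06 to 0.21, adjusted p = 0.33) and was higher in 8 mice and lower in 7. *Irf3*, at 29.1, 37.9 and 44.0 CPM, differed by -0.11 ± 0.06 (adjusted p = 0.083). It was lower in M2 in 13 of 15 mice, and with the mouse as a block, which sets each culture against the M0 culture of the same mouse, its adjusted p was 0.0013. Non-overlapping ranges were seen for *Irf4*, *Irf5* and *Irf8*, 3 of 8, and for 23.4% of all genes tested. Of dendritic cell markers, *Zbtb46* rose to 3.80 to 12.4 CPM in M2 from at most 1.02 CPM in M0. The other markers of that list stayed low, with *Clec9a* at most 1.44 CPM in M2 and 0.795 CPM in M0. *Flt3*, *Xcr1*, *Cd209a* and *Siglech* stayed at or under 0.569 CPM in both. The part of *Zbtb46* in the *Irf4* result was not tested. The markers of B cells, a lineage that also uses *Irf4*, summed to 2.51 to 4.51 CPM in M2, below the 6.94 to 11.8 CPM of M0.

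**Figure D3:**
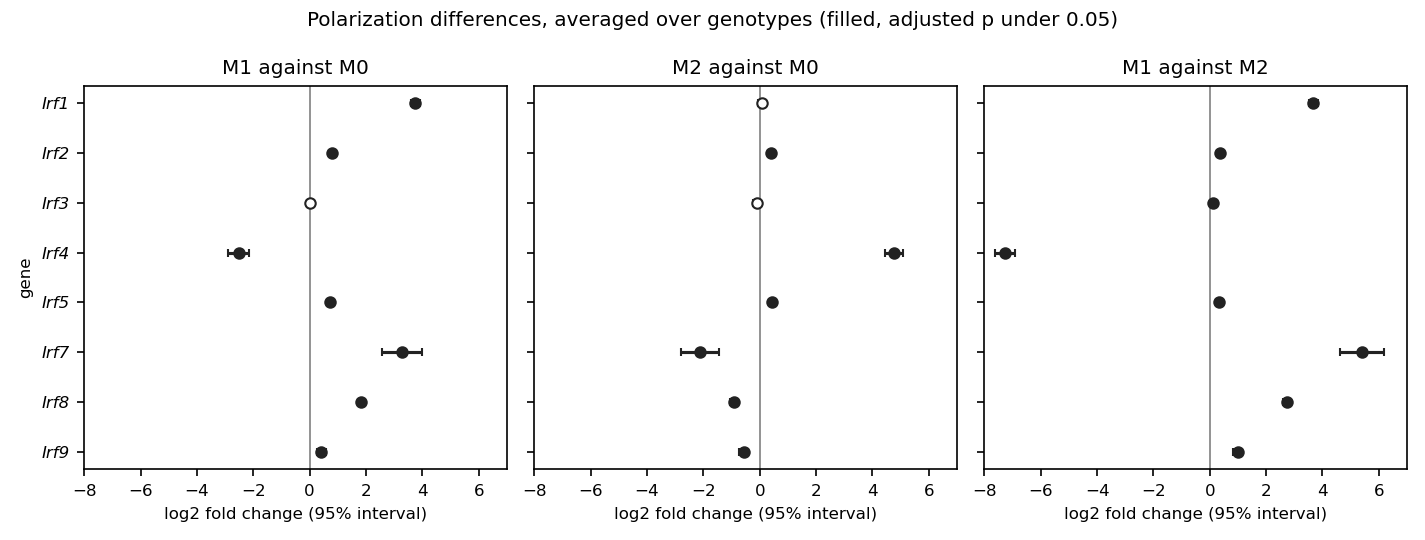
Log2 fold changes of the 8 genes between polarizations, averaged over genotypes (x axis), with 95% intervals from edgeR. Filled points have an adjusted p under 0.05. Against M0, *Irf4* lies at -2.52 in M1 and 4.76 in M2, *Irf1* and *Irf7* lie farthest to the right in M1 (3.75 and 3.29), and *Irf3* stays within 0.13 of 0 throughout.

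Set directly against each other, M1 and M2 differed in all 8 members, with 7 higher in M1 and *Irf4* higher in M2, beside 39.0% of all genes called higher and 40.1% lower. *Irf4* was 155-fold lower in M1 than in M2 (-7.28 ± 0.18, adjusted p = 4.4e-31), rank 40 from the bottom of all genes tested. *Irf7* was 42.2-fold higher (5.40 ± 0.39, adjusted p = 4.7e-16) and 5.80 ± 0.23 on the log2 scale without p.254I replicate 4. *Irf1* was 12.8-fold (3.68 ± 0.07), *Irf8* 6.67-fold (2.74 ± 0.06) and *Irf9* 1.99-fold higher in M1 (0.99 ± 0.07). *Irf2* and *Irf5* differed by 0.36 ± 0.05 and 0.32 ± 0.05 (both adjusted p under 0.05). *Irf3* was called with a difference of 0.13 ± 0.06 (1.09-fold, adjusted p = 0.038). That call was lost when p.254I replicate 2 (adjusted p = 0.057) or 3 (0.082), p.254V replicate 3 (0.072), or p.284R replicate 3 (0.07) or 4 (0.051) was left out, and it held with the mouse as a block. Ranges did not overlap for *Irf1*, *Irf2*, *Irf4*, *Irf7*, *Irf8* and *Irf9*, 6 of 8, and for 35.7% of all genes tested.

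Ratios within a library describe how the balance between members of opposing roles differed. The per-length ratio of *Irf1* to its competitor *Irf2* had a median of 1.66 in M0 (1.23 to 2.16), 12.8 in M1 (11.9 to 14.6) and 1.31 in M2 (1.12 to 1.53). With the longest coding transcript as the length these medians were 1.04, 8.06 and 0.823, so that which of the pair was higher in M0 and M2 depended on the length used, whereas *Irf1* was the higher in 15 of 15 libraries of M1 either way. The ratio of *Irf8* to *Irf4* went from 20.2 in M0 (15.4 to 25.3) to 445 in M1 (110 to 1213) and 0.392 in M2 (0.282 to 1.22). *Irf4* thus exceeded *Irf8* in M2 in 14 of 15 libraries, the exception being p.254I replicate 4, but with the longest coding transcript as the length the M2 ratio was 0.943 (0.678 to 2.93) and *Irf4* was the higher in only 10 of 15. *Irf5* exceeded *Irf4*, which competes with it for MyD88, in every library, with a ratio of 61.6 in M0 (48.0 to 93.8), 659 in M1 (184 to 2426) and 3.37 in M2 (2.48 to 6.99). The ratio of *Irf7* to *Irf3* was 3.65 in M0 (1.81 to 29.7), 51.2 in M1 (27.4 to 61.1) and 0.747 in M2 (0.485 to 5.98).

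Of the 8 members, *Irf7* had the largest spread between mice of a group in 6 of 9 groups and *Irf4* in the other 3, which were p.254I and p.284R in M1 and p.254V in M2. The SD of the *Irf7* log2 level within a group was 0.23 to 1.54, where the median gene had 0.12 to 0.17, and it lay above that of 86.1% to 99.9% of tested genes in all 9 groups. *Irf1* was the reverse in M1, with an SD of 0.04 in p.254V, and only 3.8% of tested genes had a smaller one. In p.284R the *Irf7* levels in M0 were 154, 227, 294, 168 and 90.3 CPM in replicates 1 to 5, and in M2 33.8, 71.4, 90.7, 34.5 and 20.8 CPM, so that replicates 2 and 3 were the highest in both. In p.254V they were 146, 175, 149, 136 and 88.6 CPM in M0 and 29.9, 39.6, 25.2, 28.8 and 29.7 CPM in M2. In p.254I they were 150, 159, 171, 1540 and 107 CPM in M0 and 35.2, 67.9, 20.3, 289 and 27.8 CPM in M2.

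*Irf7* and *Irf9* followed the interferon response genes of the same library. The 16 ISGF3 target genes listed for this comparison (such as *Isg15*, *Ifit2*, *Mx1* and *Oas3*) summed to 743 to 1909 CPM in the 14 other M0 libraries and to 5198 CPM in p.254I replicate 4. In M2 the corresponding values were 315 to 905 CPM and 1100 CPM. The 3 M1 libraries numbered 2, with the lowest *Irf7*, had sums of 5279 to 7089 CPM, below the 7756 to 10983 CPM of the other 12. After group means were removed, the 2 members correlated with each other across 45 libraries with Pearson's r = 0.91, and with r = 0.80 over the 42 libraries without p.254I replicate 4. The closest non-member genes to *Irf7* by the same measure were *Dhx58* (0.965), *Bst2* (0.964) and *Xaf1* (0.959), and to *Irf9* *Oas3* (0.954), *Oasl2* (0.939) and *Oas1a* (0.932). Libraries of 1 mouse share an animal and libraries of 1 number may share handling, so these values describe likeness only.

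**Figure D4:**
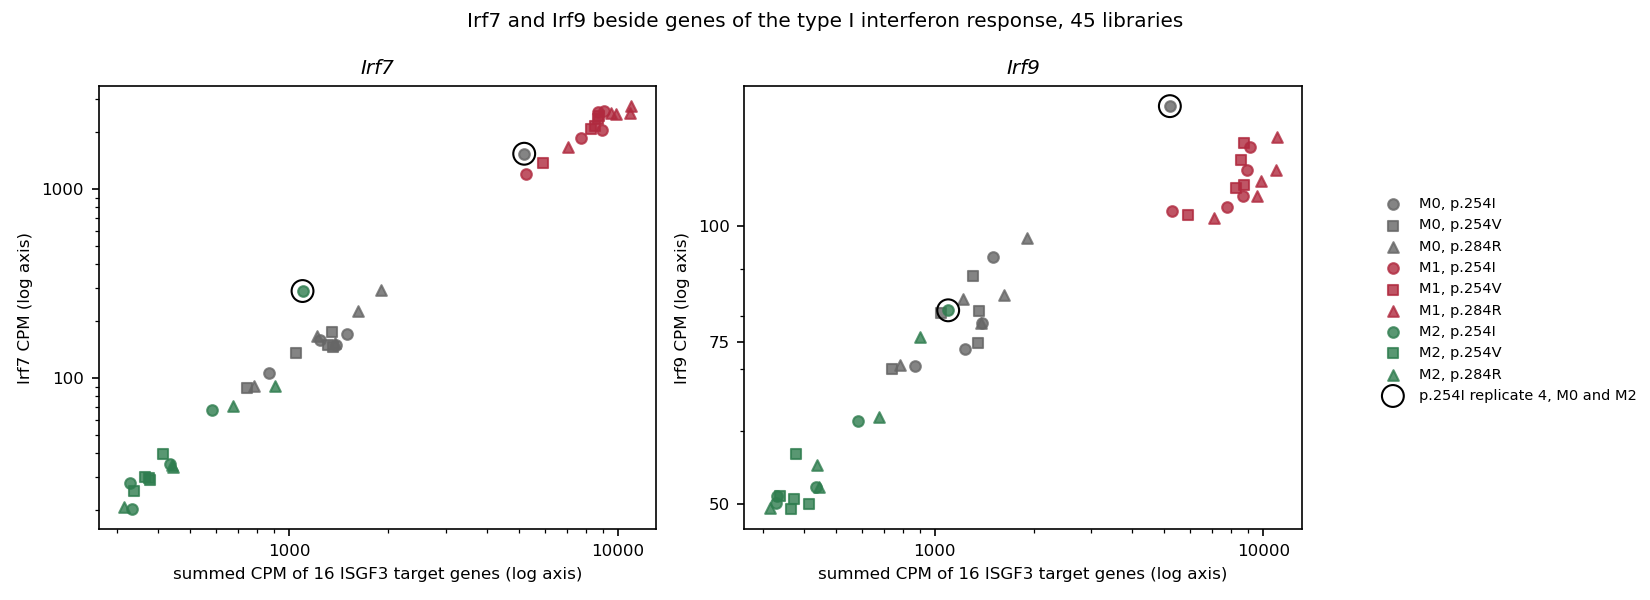
CPM of *Irf7* (left) and *Irf9* (right) against the summed CPM of 16 ISGF3 target genes, both on log axes, for 45 libraries colored by polarization with a symbol per genotype. Circles mark p.254I replicate 4 in M0 and M2. In M0 it lies at 5198 CPM on the x axis, near the M1 libraries, and has more *Irf9* (135 CPM) than any M1 library.

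Over the 45 libraries, without removing group means, the genes whose log2 levels were most like each member differed between members. For *Irf1* they were *Pla2g16* (r = 0.996), *Batf2* (0.995) and *Sectm1a* (0.995), for *Irf8* *Fcgr4* (0.993), *Bcl9* (0.991) and *I830077J02Rik* (0.990), and for *Irf4* *Tmem26* (0.988), *Slc30a4* (0.988) and *Klf9* (0.987). For *Irf7* they were *Xaf1* (0.995), *Oas3* (0.993) and *Ifi206* (0.992), and for *Irf9* *Oasl2* (0.980), *Samd9l* (0.978) and *Ifi213* (0.977). For *Irf2* they were *Ints9* (0.966), *Twf2* (0.961) and *Prdx2* (0.951), for *Irf5* *Ass1* (0.955), *Arf1* (0.951) and *Gsdmd* (0.948), and for *Irf3* *Cdk5* (0.901), *Rbm5* (0.858) and *Gm35339* (0.857). With so large a polarization effect these values mostly describe shared differences between M0, M1 and M2. Within groups, *Irf1* was closest to *Nod1* (0.874), *Irf8* to *Scpep1* (0.862), *Irf2* to *Smarcd2* (0.888), *Irf3* to *Gm35339* (0.921), *Irf5* to *Coro2a* (0.835) and *Irf4* to *Fam117b* (0.756).

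The *Famin* genotypes were compared to ask whether the variants altered the family. None of the 8 members was called in any of 13 genotype or interaction comparisons, that is in 0 of 104 edgeR tests, 5 of which had an unadjusted p under 0.05. All 5 were tests of *Irf7* against p.254I, whose group holds replicate 4. In the same 5 comparisons, between 111 and 329 of the 12905 genes had an unadjusted p under 0.05. Few genes of any kind were called. Averaged over M0, M1 and M2, 0.0155% of genes tested were called for p.284R against p.254I, 0.0155% for p.254V against p.254I and 0% for p.284R against p.254V. Within polarizations, p.284R against p.254I gave 0% in M0, 0.263% in M1 and 0.00775% in M2, p.254V against p.254I gave 0% in M0, M1 and M2, and the 4 interactions gave 0%. For no member did the 5 libraries of p.284R or p.254V lie clear of those of p.254I. Set against the p.254I library of the same number in M2, *Irf5* was higher in p.284R in 5 of 5 pairs, by 0.09 ± 0.06 (SD) on the log2 scale, and *Irf2* in p.254V in 5 of 5, by 0.02 ± 0.01, and these were the only members with 5 of 5 pairs in 1 direction. Ranges of 5 libraries lay clear of p.254I, in either direction, for 0.124%, 0.604% and 0.201% of all genes with p.284R in M0, M1 and M2. With p.254V these shares were 0.132%, 0.240% and 0.333%. The share of all genes with 5 of 5 pairs in 1 direction was not counted. What a number shares across genotypes is not given, so no genotype difference is read from the same-number pairs.

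For most members the intervals were narrower than those of *Irf4* and *Irf7* in the fit without a block. That fit treated cultures of the same mouse as independent, although they deviated together in 38 of 45 pairs. Genotype intervals averaged over polarizations, those of *Irf7* below included, may therefore be too narrow for a difference between mice. Averaged over polarizations, the 95% intervals for p.284R against p.254I were -0.16 to 0.11 for *Irf1*, -0.13 to 0.07 for *Irf2*, -0.11 to 0.13 for *Irf3*, -0.02 to 0.18 for *Irf5*, -0.19 to 0.04 for *Irf8* and -0.18 to 0.11 for *Irf9*, on the log2 scale. For p.254V against p.254I the corresponding intervals were -0.14 to 0.14, -0.13 to 0.07, -0.14 to 0.10, -0.09 to 0.11, -0.11 to 0.12 and -0.27 to 0.03. *Irf4* had wider intervals, with -0.54 to 0.14 for p.284R and -0.42 to 0.24 for p.254V. In M1, the polarization in which p.284R had the most calls, *Irf8* levels were 841, 810, 803, 715 and 743 CPM in p.284R and 943, 850, 796, 795 and 729 CPM in p.254I, and the difference was -0.07 ± 0.10 (adjusted p = 0.98). *Irf5* in M1 was 500, 496, 555, 596 and 612 CPM in p.284R and 512, 482, 561, 484 and 504 CPM in p.254I, with a difference of 0.12 ± 0.08 (adjusted p = 0.91).

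*Irf7* had the largest genotype differences of the family, and those from p.254I in M0, in M2 and on average rested on 1 mouse. Averaged over polarizations it differed by -1.04 ± 0.32 in p.254V (95% interval, -1.70 to -0.38, adjusted p = 1) and by -0.59 ± 0.32 in p.284R (-1.24 to 0.06, adjusted p = 1) from p.254I. Without p.254I replicate 4 these became -0.12 ± 0.19 and 0.32 ± 0.19. Within M0 the difference of p.254V from p.254I went from -1.61 ± 0.57 to -0.08 ± 0.33 and that of p.284R from -1.19 ± 0.56 to 0.35 ± 0.33, and in M2 from -1.53 ± 0.57 to -0.30 ± 0.33 and from -0.81 ± 0.56 to 0.41 ± 0.34. The sign of the p.284R difference in M0, in M2 and on average thus turned when this mouse was left out. In M1 the *Irf7* folds over p.254I were 1.17 in p.284R and 1.02 in p.254V with this mouse, and 1.16 and 1.01 without it. Between p.284R and p.254V, neither of which holds this mouse, *Irf7* differed by 0.45 ± 0.32 on average (95% interval, -0.21 to 1.10, edgeR adjusted p = 0.95). *Irf4* in M1, which was -0.62 ± 0.38 in p.284R and -0.54 ± 0.37 in p.254V, became -0.11 ± 0.36 and -0.03 ± 0.35 without p.254I replicate 5.

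**Figure D5:**
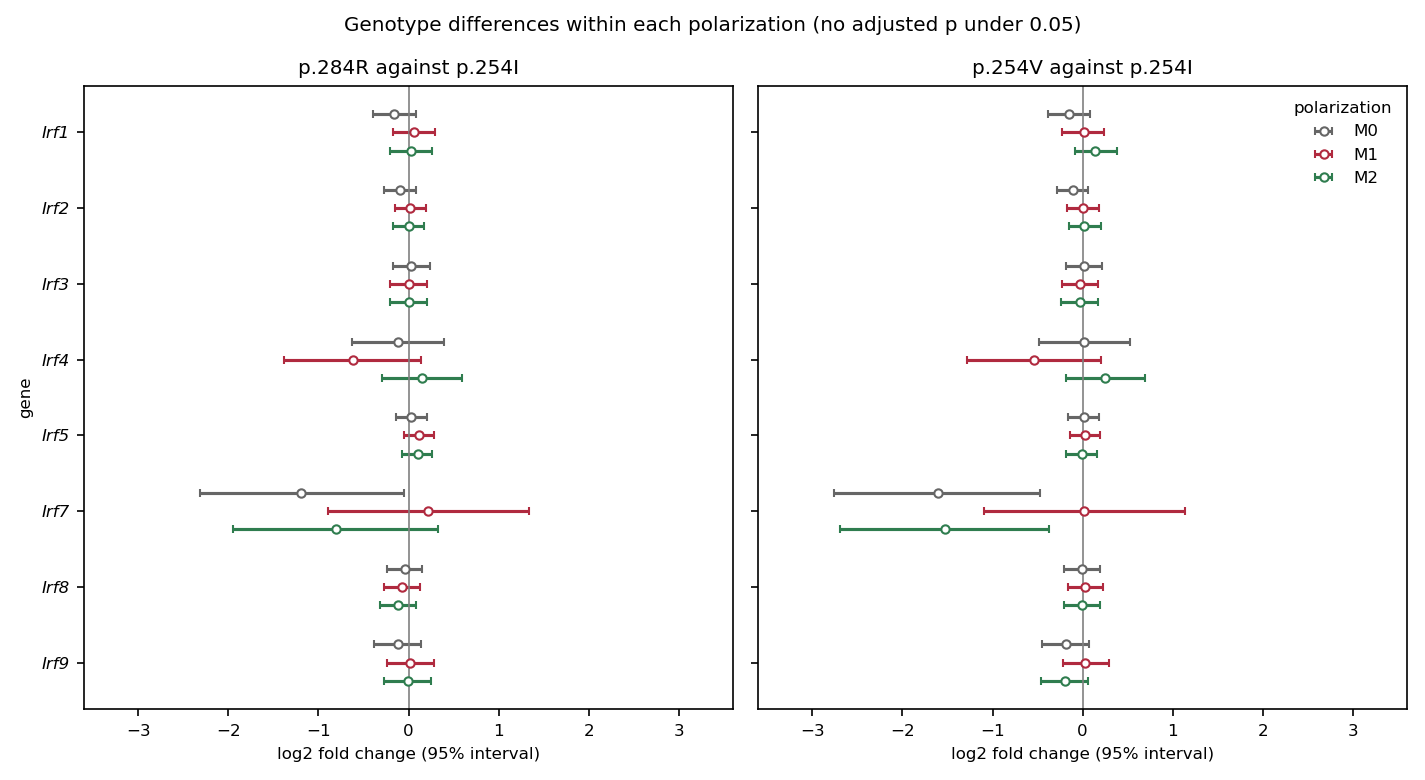
Log2 fold changes of p.284R (left) and p.254V (right) against p.254I for each gene, with 95% intervals from edgeR, in M0, M1 and M2. No point passed an adjusted p of 0.05. The *Irf7* points of M0 and M2 lie farthest to the left (-1.61 in M0 with p.254V) and include p.254I replicate 4.

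Genes upstream and downstream of the family were counted from lists. Of 23 upstream sensors, adaptors and kinases, all tested, 15 were higher and 3 lower in M1 than in M0, with a median log2 difference of 0.39, and 3 were higher and 14 lower in M2 (median -0.21). *Myd88*, the adaptor through which IRF5 and IRF7 are activated, rose by 1.21 ± 0.06 in M1 and fell by 0.21 (SE 0.06) in M2. *Tlr4*, the LPS receptor, rose by 0.39 ± 0.05 and by 0.15 ± 0.05, and *Cd14*, its co-receptor, fell by 2.55 (SE 0.12) and by 3.11 (SE 0.13). *Ikbke*, an IRF3 kinase gene, fell by 1.10 in M2 (SE 0.09). Of 11 interferon and IL-4 receptor, JAK and STAT genes, 5 were higher and 3 lower in M1, and 2 higher and 7 lower in M2. *Stat2*, a signal transducer of the type I interferon receptor, rose by 1.93 ± 0.13 in M1 and fell by 0.63 (SE 0.13) in M2. *Il4ra* rose by 1.85 ± 0.08 in M1 and fell by 0.76 (SE 0.08) in M2, *Stat6* had differences of -0.04 ± 0.05 and -0.13 ± 0.05, the second called, and *Jak1* fell by 0.21 (SE 0.06) in M1.

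Partners and inhibitors of the family were also measured. Of 8 listed DNA-binding partners and corepressors 6 were tested, with 5 higher and 1 lower in M1 and 4 higher and 1 lower in M2. *Batf2*, a BATF family partner, rose by 4.71 ± 0.10 in M1, and *Spi1*, which encodes PU.1, rose by 0.38 ± 0.04 in M1 and 0.23 ± 0.04 in M2. *Etv6* rose by 1.61 ± 0.05 and 0.37 ± 0.05, and *Irf2bp2*, the corepressor of IRF2, fell by 1.11 (SE 0.07) and by 0.30 (SE 0.07). Of 8 negative regulators, 6 were higher and 1 lower in M1, and 3 higher and 3 lower in M2. *Socs1*, an inhibitor of JAKs, rose in both, by 7.33 ± 0.12 and 5.15 ± 0.11, *Usp18*, which restrains the type I interferon receptor, rose by 2.80 ± 0.19 in M1, *Trim21* rose by 1.96 ± 0.07 in M1 and fell by 0.67 (SE 0.07) in M2, and *Rbck1* rose by 0.79 ± 0.03 and 0.30 ± 0.03.

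Downstream, all 16 ISGF3 targets were higher in M1 (median 2.15) and all 16 lower in M2 (median -1.57), the directions of *Irf7* and *Irf9*. *Ifit2* changed by 3.67 ± 0.30 and -3.33 ± 0.30, *Oas3* by 2.25 ± 0.23 and -1.54 ± 0.23, *Oasl2* by 1.72 ± 0.20 and -1.45 ± 0.20, and *Mx1* by 3.32 ± 0.25 and -0.54 ± 0.23. Of 15 IRF1-associated IFN-γ targets 13 were tested and all 13 were higher in M1 (median 4.72), among them *Cxcl9* (12.48 ± 0.31), *Gbp2* (7.01 ± 0.26), *Gbp5* (6.47 ± 0.25) and *B2m* (1.56 ± 0.07). In M2, where *Irf1* was not called, 5 of these 13 were higher and 6 lower. Of 8 IRF4-associated genes of the IL-4 program, 7 were higher and none lower in M2 (median 6.53), with *Retnla* at 14.66 ± 0.77, *Arg1* at 11.65 ± 0.54, *Chil3* at 6.40 ± 0.35 and *Mrc1* at 0.78 ± 0.12, whereas 2 were higher and 2 lower in M1. Of 5 IRF5-associated cytokines only *Tnf* and *Ccl5* were tested. *Tnf* rose by 1.89 ± 0.17 in M1 and fell by 0.45 (SE 0.18) in M2, and *Ccl5*, the gene that was high in p.254I replicate 4, rose by 5.07 ± 0.63 in M1 with that mouse included. Transcripts of *Ifng*, *Ifnl2* and *Ifnl3*, the interferon genes that were found, summed to at most 0.0772 CPM in any library. None of the genes of these lists was called between genotypes averaged over polarizations. Between p.284R and p.254I in M1, 4 were called, named here because they were called. *Nos2*, an IRF1 target, was higher by 2.20 ± 0.45 (adjusted p = 0.017) and *Tnfaip3*, an inhibitor of NF-κB signaling, by 0.77 ± 0.18 (adjusted p = 0.034), and both lost the call without p.284R replicate 5 (adjusted p = 0.15 and 0.27) or without p.254I replicate 4 (0.077 for both), as *Tnfaip3* did without p.254I replicate 5 (0.086). *Arg1* and *Retnla*, IRF4-associated genes, were called lower, with differences of -3.69 ± 0.83 and -6.92 ± 1.47, but the differences were -0.08 ± 0.42 and 0.97 ± 1.83 without p.254I replicate 5, the library in which *Irf4* was high. *Cd40*, from the M1 marker list and named for the same reason, was called higher by 1.05 ± 0.20 (edgeR adjusted p = 0.015). It kept the call without p.254I replicate 4 (0.039) or 5 (0.027) and lost it without p.284R replicate 5 (0.15).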

How the data were processed

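RNA was sequenced from 45 macrophage libraries (TruSeq Stranded mRNA, single-end reads). Per the labels and the study's methods, the authors trimmed reads with Trim Galore, aligned them to mm10 with HISAT2 and deposited raw counts per gene; the series' design text names STAR instead. The counting tool, its annotation and its use of strand are not given in the sources used here. A second deposited table holds CPM values of 11900 genes. These gave whole reads for 100% of values (tolerance 0.01), all equal to the deposited counts. The library total sets counting precision, and *Irf4* in M1 (7 to 90 counts) is the least precise value.

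Counts were filtered with filterByExpr, scaled by TMM (factors 0.939 to 1.1) and fitted with edgeR 4.0.16 (R 4.3.3, robust quasi-likelihood) in 1 model of 9 groups without a block. Genes with an adjusted p under 0.05 were called. Levels per length used merged exons of GENCODE vM21, and correlations used log2(CPM + 1). Counts were also simulated independently for each library, with 200 genes over 1 CPM changed by 1 on the log2 scale. The fit recovered 100% of them for M1 against M0 (12657 genes), and 99.5% and 96% for p.284R against p.254I on average and in M1 (12826 genes). It also called 7, 10 and 13 unchanged genes. For M1 against M0 all other genes had equal levels in M0, M1 and M2, so the broad polarization differences of the data were absent. Smaller changes, likeness between libraries of 1 mouse or number, and outlying libraries were not simulated.

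The members, the gene lists and the tests were chosen with earlier results of these data known. Genes named are all members, the 3 genes nearest to each member, the 4 most abundant tested genes of each list, and those said to be named for their values. A genotype and replicate number was read as 1 mouse. Libraries with the same number in different genotypes deviated together in 15 of 15 pairs in M0 and in M1 and in 13 of 15 in M2 (correlations over 0.1), and cultures of 1 mouse did so in 38 of 45 pairs. That the 3 cultures share a mouse is not modelled, and blocked fits are among 23 alternatives, with limma 3.58.1 and DESeq2 1.42.0. *Irf2bp1*, *Irf2bpl* and the type I interferon genes *Ifnb1*, *Ifna1*, *Ifna2* and *Ifna4* are not analysed here.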

Additional observations from a re-analysis of the deposited data

Results flagged for a closer look

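A single library lay far from the other 4 of its group for 6 of 72 combinations of member and group, by Dixon's test with a critical value of 0.71; chance alone flags about 1 in 20 groups. *Irf7* was 1540 CPM in p.254I replicate 4 in M0 (107 to 171 CPM in the others of its group) and 289 CPM in the same mouse in M2 (20.3 to 67.9 CPM). *Irf7* was 1668 CPM in p.284R replicate 2 in M1, below the other 4 (2489 to 2751 CPM). *Irf4* was 4.62 CPM in p.254I replicate 5 in M1 (0.674 to 1.75 CPM). *Irf5* was 266 CPM in p.254V replicate 1 in M0 (319 to 338 CPM). *Irf9* was 56.6 CPM in p.254V replicate 4 in M2 (49.4 to 51.0 CPM).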

How the results depend on the processing

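Under 23 alternatives, 7 members were called for M1 against M0 in all 23, 6 for M2 against M0 in 20 and 7 in the other 3, 8 for M1 against M2 in 18 and 7 in the other 5, and none for any genotype comparison. The alternatives include other scalings, DESeq2, limma-voom, no low-count filter, sums per mouse, and each of the 15 mice left out. Reads recovered from the CPM table and the gene length were alternatives chosen after seeing the data. Of single log2 fold changes, 3 gained a call and 5 lost one, all of *Irf3*, and none with a call reversed. With the replicate block, *Irf3* was called lower in M2 than in M0 (adjusted p = 0.0042 with the number as the block, 0.0013 with the mouse, 0.026 with the mouse as a random effect in limma), against 0.083 without a block. Its difference between M1 and M2 lost the call without any of 5 mice (adjusted p 0.051 to 0.082). The paired fits changed no other call of a member. Over all genes, p.284R against p.254I in M1 gave 34 calls, 109 without p.284R replicate 2 and 0 without p.284R replicate 5. Averaged over polarizations it gave 2, and at most 19. *Irf7* between p.254V and p.254I was -1.04, and -0.12 without p.254I replicate 4. *Irf4* in M1 is limited by depth.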
